A study of Danio rerio with 12 samples.

Results

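The transcripts of figla, nobox, lhx8a, zar1 and zar1l were followed in zebrafish ovarian follicles. The first 3 encode transcription factors of the oocyte, and zar1 and zar1l encode the paired zygote arrest proteins, which bind stored maternal mRNA. The 5 genes were chosen by symbol, and 4 of them, figla, lhx8a, zar1 and zar1l, had an ID in the name table, out of 32057 genes counted. The IDs are ENSDARG00000087166 for figla, ENSDARG00000002330 for lhx8a, ENSDARG00000019706 for zar1 and ENSDARG00000055973 for zar1l. lhx8a, zar1 and zar1l were listed there under capitals only (LHX8, ZAR1 and ZAR1L), with a single ID each. nobox was not analysed here.

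RNA sequencing was made from follicles at the primary growth stage, in which the oocyte enlarges before it takes up yolk, of AB strain fish (Danio rerio). The 4 groups, with 3 libraries each, were cdkn1a +/- heterozygotes at 8 months post-fertilization (mpf), wild type (cdkn1a +/+) at 8 mpf, heterozygotes at 50 days post-fertilization (dpf) and wild type at 50 dpf. cdkn1a encodes the cell cycle inhibitor p21. Per the series title and description, it was disrupted with CRISPR/Cas9, and heterozygotes were used because fish without a working copy do not live past the embryo. The labels do not say how many fish gave each library, whether replicates came from separate fish or whether the mutant line goes back to 1 founder, so the p-values measure the spread between these libraries, which may be technical. The comparisons ask what the loss of 1 cdkn1a copy changes in early follicles at each age.

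FIGLA is a basic helix-loop-helix protein that acts together with E proteins. In mice it activates genes of the egg coat and is needed to form primordial follicles, and zebrafish without figla develop as males. LHX8, a LIM homeodomain protein, and the homeodomain protein NOBOX are needed for early oocyte differentiation in mice. ZAR1 and ZAR1L bind maternal mRNAs through a zinc finger at their end and hold back their translation; in zebrafish, Zar1 is needed for oocytes to develop.

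Library totals ran from 31044931 to 96839220 estimated counts, and the 4 genes had at least 1494 counts in every library. Levels are given in CPM (a gene's share of the counts of its library, scaled up to a common total) after TMM scaling, which aligns the bulk of the genes between libraries. CPM are not divided by transcript length, so levels were compared between groups within a gene and not between genes. Of the disrupted gene cdkn1a, the libraries held 0.397 to 0.651 CPM in heterozygotes and 0.668 to 1.13 CPM in wild type at 8 mpf, and 0.422 to 0.519 CPM in heterozygotes and 3.37 to 3.87 CPM in wild type at 50 dpf. The heterozygote libraries lay below the wild-type libraries at each age, by -0.68 on the log2 scale at 8 mpf (edgeR adjusted p = 0.0679) and by -2.94 at 50 dpf (edgeR adjusted p = 6.79e-06). The heterozygote mean was 63.4% of wild type at 8 mpf and 12.9% at 50 dpf. These effects differed by 2.26 (8 mpf less 50 dpf, edgeR adjusted p = 0.00193), so cdkn1a RNA relative to wild type was not the same at the 2 ages. All of 8 oocyte markers were counted in every group, which does not test the stage or the purity of the follicles. The TMM factors ran from 0.757 to 0.9996 in heterozygotes and from 1.03 to 1.22 in wild type. The scaling thus raised heterozygote CPM relative to wild type at both ages, so the genotype effects depend on it. What lay behind these factors was not tested. Heterozygote replicate 1 at 50 dpf stood apart, with a TMM factor of 0.757 against 0.893 in the other libraries of its group. Results that rest on it are given without it where a call or a value turned on it.

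figla fell in heterozygotes at both ages and fell further with age in both genotypes. At 8 mpf it was counted at 33.6, 34.8 and 31.8 CPM in heterozygotes, against 55.4, 40.1 and 50.9 CPM in wild type. In the younger fish, at 50 dpf, it was counted at 174, 133 and 118 CPM in heterozygotes, against 243, 221 and 249 CPM in wild type. The highest heterozygote library was below the lowest wild-type library at each age, and all 6 libraries at 8 mpf were below all 6 at 50 dpf.

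The figla group means at 8 mpf were 33.4 ± 1.47 CPM in heterozygotes and 48.8 ± 7.88 CPM in wild type (SD, n = 3 each), a heterozygote level of 68.4% of wild type. This is a change of -0.55 on the log2 scale, with an SE of 0.15 and an adjusted p of 0.0145 (edgeR's quasi-likelihood test, Benjamini-Hochberg over all tested genes). This call was lost without heterozygote replicate 3 at 8 mpf (-0.52, edgeR adjusted p = 0.0594) and without wild-type replicate 1 at 8 mpf (-0.46, edgeR adjusted p = 0.0611). At 50 dpf the means were 142 ± 29.1 CPM in heterozygotes and 238 ± 14.5 CPM in wild type, a level of 59.6%. The log2 change was -0.75 (SE 0.15; edgeR adjusted p = 0.0016), and without heterozygote replicate 1 at 50 dpf it was -0.93. The genotype effects at the 2 ages differed by 0.20 on the log2 scale (8 mpf less 50 dpf, SE 0.21; edgeR adjusted p = 0.562).

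With age figla dropped to 23.6% of its 50 dpf mean in heterozygotes, a log2 change of -2.08 (SE 0.15; edgeR adjusted p = 8.73e-07). In wild type at 8 mpf it stood at 20.5% of the 50 dpf mean, a log2 change of -2.29 (SE 0.15; edgeR adjusted p = 3.46e-07). From lowest to highest, the order was heterozygotes at 8 mpf, wild type at 8 mpf, heterozygotes at 50 dpf and wild type at 50 dpf, and no neighbours in that order overlapped. figla was lower at a false discovery rate under 0.05 in both genotype comparisons and in both age comparisons, as were 2.15% of the 18834 genes tested. The labels name no batch, and the ages are different sets of libraries, so an effect of age and one of how those sets were collected or sequenced cannot be told apart. In whole follicles, fewer cells of a type and less RNA per cell cannot be told apart either.

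**Figure D1:**
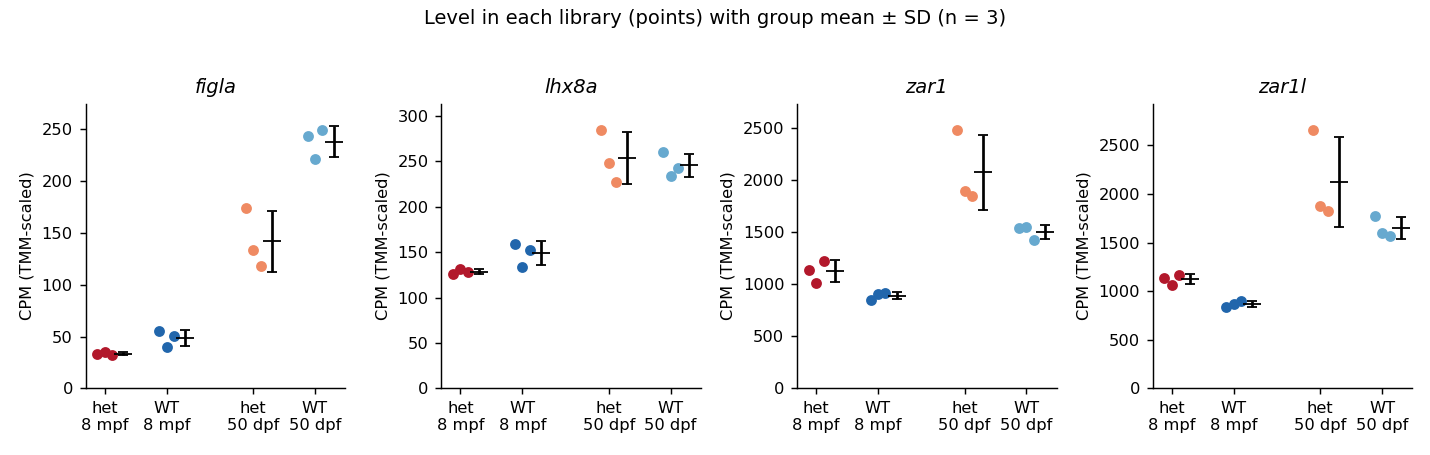
CPM of figla, lhx8a, zar1 and zar1l (vertical axes, linear, from 0) in the 12 libraries. Points are libraries, coloured by group, and bars are group means ± SD (n = 3; het, heterozygote; WT, wild type). After TMM scaling, figla is lower in heterozygotes at each age, and all 4 genes are lower at 8 mpf. zar1 and zar1l are, after this scaling, higher in every heterozygote library than in every wild-type library of the age.

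lhx8a passed the threshold in neither genotype comparison and fell with age in both genotypes. At 8 mpf it was counted at 126, 131 and 129 CPM in heterozygotes, against 160, 134 and 153 CPM in wild type. The groups at 8 mpf did not overlap, although the nearest libraries, heterozygote replicate 2 and wild-type replicate 2, were close. At 50 dpf it was counted at 285, 248 and 228 CPM in heterozygotes, against 260, 234 and 242 CPM in wild type, and the groups overlapped. As an unscaled share of library counts they did not, at 0.0203% to 0.0222% in heterozygotes and 0.0253% to 0.0268% in wild type.

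For lhx8a at 8 mpf the means were 129 ± 2.54 CPM in heterozygotes and 149 ± 13.2 CPM in wild type (SD, n = 3 each). The log2 change was -0.21 (SE 0.10, edgeR adjusted p = 0.139), with an approximate 95% interval from -0.41 to -0.01. This interval is 1.96 SE on either side and is somewhat too narrow. The unadjusted edgeR p was 0.0564, so that the interval leaves out 0 is not read as a result. It passed the threshold under 4 of 23 alternatives, with upper quartile scaling (-0.30, adjusted p = 0.0478), with library size alone (-0.39, adjusted p = 0.000779), without wild-type replicate 2 at 8 mpf (-0.29, adjusted p = 0.0487) and without heterozygote replicate 1 at 50 dpf (-0.23, adjusted p = 0.0375). At 50 dpf the means were 254 ± 29.1 CPM in heterozygotes and 245 ± 13.2 CPM in wild type. The log2 change was 0.05 (SE 0.10; edgeR adjusted p = 0.735), with an interval from -0.15 to 0.24, and its sign depended on the scaling. With upper quartile scaling it was -0.03, and with library size alone it was -0.29 and past the threshold (adjusted p = 0.00334). The effects at the 2 ages differed by -0.26 (SE 0.14; edgeR adjusted p = 0.261).

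With age lhx8a dropped to 50.7% of its 50 dpf mean in heterozygotes (log2 change -0.98, SE 0.10; edgeR adjusted p = 7.28e-06). In wild type it was at 60.6% at 8 mpf (-0.72, SE 0.10; edgeR adjusted p = 6.95e-05). Both groups at 8 mpf therefore stood below both groups at 50 dpf, and only the genotypes at 50 dpf overlapped in TMM-scaled CPM. Its duplicate lhx8b had 0 counts in all 12 libraries, a limit of 3 counts per library at these depths.

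In TMM-scaled CPM, zar1 was higher in every heterozygote library than in every wild-type library of the same age, and passed the threshold at 50 dpf. As an unscaled share of library counts, its genotypes overlapped at both ages. At 8 mpf the shares were 0.102% to 0.122% in heterozygotes and 0.0910% to 0.111% in wild type. At 50 dpf they were 0.165% to 0.188% in heterozygotes and 0.155% to 0.167% in wild type. At 8 mpf zar1 was counted at 1135, 1016 and 1227 CPM in heterozygotes, against 851, 911 and 913 CPM in wild type. In the younger fish, at 50 dpf, it was counted at 2487, 1893 and 1847 CPM in heterozygotes, against 1544, 1548 and 1430 CPM in wild type. Heterozygote replicate 1 at 50 dpf, the library that stood apart, was the highest of all 12.

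The zar1 means at 8 mpf were 1126 ± 106 CPM in heterozygotes and 892 ± 35.4 CPM in wild type (SD, n = 3 each), with a log2 change of 0.34 (SE 0.12; edgeR adjusted p = 0.0621) that missed the threshold. DESeq2's Wald test (adjusted p = 0.0185) and the fit without heterozygote replicate 1 at 50 dpf (adjusted p = 0.0144) passed it. At 50 dpf the means were 2076 ± 357 CPM in heterozygotes and 1508 ± 67.3 CPM in wild type, a level of 138% and a log2 change of 0.46 (SE 0.12; edgeR adjusted p = 0.0111). Without heterozygote replicate 1 at 50 dpf the log2 fold change was 0.31 (edgeR adjusted p = 0.0243). With library size alone it was 0.12 and no longer called (edgeR adjusted p = 0.336). That scaling also moved the median of all genes at 50 dpf to -0.40, against -0.07 with TMM.

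zar1l followed zar1 across the groups. At 8 mpf zar1l was counted at 1139, 1063 and 1168 CPM in heterozygotes, against 841, 867 and 896 CPM in wild type. At 50 dpf it was counted at 2662, 1881 and 1828 CPM in heterozygotes, against 1776, 1597 and 1571 CPM in wild type. In TMM-scaled CPM the genotypes did not overlap at either age, though at 50 dpf the lowest heterozygote library lay close to the highest wild-type library. As an unscaled share of library counts, zar1l overlapped at 50 dpf, at 0.163% to 0.201% in heterozygotes and 0.171% to 0.183% in wild type.

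For zar1l at 8 mpf the means were 1124 ± 54.5 CPM in heterozygotes and 868 ± 27.7 CPM in wild type (SD, n = 3 each), a log2 change of 0.37 (SE 0.14; edgeR adjusted p = 0.0591). It passed the threshold under 5 of 23 alternatives, with DESeq2 (adjusted p = 0.0211), in a fit of the groups compared alone (edgeR adjusted p = 0.0207), with the replicate block (edgeR adjusted p = 0.047), and without heterozygote replicate 1 (edgeR adjusted p = 0.00587) or replicate 3 (edgeR adjusted p = 0.0467) at 50 dpf. At 50 dpf they were 2124 ± 467 CPM in heterozygotes and 1648 ± 111 CPM in wild type, a log2 change of 0.37 (SE 0.14; edgeR adjusted p = 0.0474). The call at 50 dpf was at the edge of the threshold and was kept under 5 of 23 alternatives. Without heterozygote replicate 1 at 50 dpf the value was 0.17 (edgeR adjusted p = 0.166), and with library size alone it was 0.02 (edgeR adjusted p = 0.894). The effects at the 2 ages differed by -0.12 for zar1 (SE 0.18; edgeR adjusted p = 0.689) and by 0.01 for zar1l (SE 0.19; edgeR adjusted p = 0.996).

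Both zar genes fell with age. zar1 at 8 mpf was at 54.3% of its 50 dpf mean in heterozygotes (log2 change -0.88, SE 0.13; edgeR adjusted p = 7.99e-05) and at 59.1% in wild type (-0.76, SE 0.13; edgeR adjusted p = 0.000267). zar1l was at 52.9% in heterozygotes (-0.92, SE 0.14; edgeR adjusted p = 0.000113) and at 52.7% in wild type (-0.92, SE 0.14; edgeR adjusted p = 0.000112). In TMM-scaled CPM, both genes were lowest in wild type at 8 mpf, then heterozygotes at 8 mpf, wild type at 50 dpf and heterozygotes at 50 dpf. No neighbours in that order overlapped. The genotypes thus stood in the opposite order to that of figla.

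Set against the background, 1 of the 4 genes was called between genotypes at 8 mpf, where 28.1% of all 18834 tested genes were called, and 3 of 4 at 50 dpf, where 40.8% were. In TMM-scaled CPM the genotypes did not overlap for 4 of 4 genes at 8 mpf (47.0% of all genes) and for 3 of 4 at 50 dpf (57.4% of all genes). All 4 genes were called lower at 8 mpf in heterozygotes, as were 25.5% of all genes, and in wild type, as were 26.5%. In both genotypes all 4 also lay below 50 dpf without overlap, as did 29.8% of all genes in heterozygotes and 33.6% in wild type. The age calls of the 4 genes were kept under all 23 alternatives in both genotypes. The difference between the genotype effects passed the threshold for 13.5% of all genes and, in edgeR's test, for 0 of the 4, none of which had an unadjusted p under 0.05; the other tests also called 0 of 4.

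**Figure D2:**
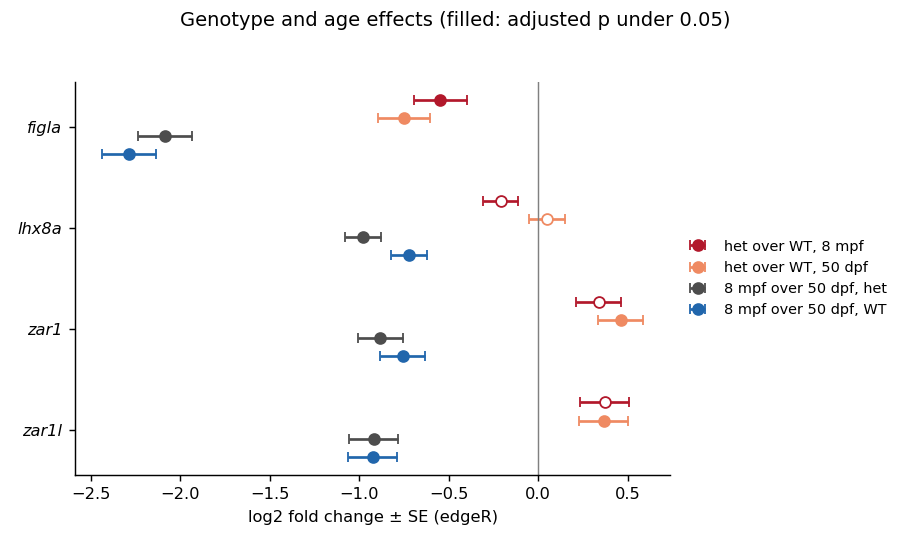
Log2 fold changes from edgeR (horizontal axis) with SE bars for figla, lhx8a, zar1 and zar1l, for heterozygotes (het) over wild type (WT) at each age and for 8 mpf over 50 dpf in each genotype. Filled points passed an adjusted p of 0.05. The age effects lie between -2.29 and -0.72, and the genotype effects between -0.75 and 0.46.

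Ratios between the 4 genes within a library do not depend on how libraries are scaled; since CPM are not divided by length, only their differences between groups are read. The ratio of figla to lhx8a at 8 mpf was 0.267, 0.265 and 0.248 in heterozygotes, against 0.348, 0.299 and 0.333 in wild type. In the younger fish, at 50 dpf, it was 0.611, 0.537 and 0.517 in heterozygotes, against 0.934, 0.946 and 1.03 in wild type. Relative to lhx8a, figla was lower in each heterozygote library than in each wild-type library of the age, and lower in each library at 8 mpf than in each at 50 dpf. How many of all genes separate in such ratios was not counted. In TMM-scaled CPM the genotypes did not overlap for 47.0% of all genes at 8 mpf and 57.4% at 50 dpf.

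The ratio of figla to zar1 at 8 mpf was 0.0296, 0.0342 and 0.0260 in heterozygotes, against 0.0652, 0.0440 and 0.0557 in wild type. At 50 dpf it was 0.0700, 0.0705 and 0.0637 in heterozygotes, against 0.157, 0.143 and 0.174 in wild type. The mean ratio was thus 0.0299 ± 0.00413 in heterozygotes and 0.0550 ± 0.0106 in wild type at 8 mpf, and 0.0680 ± 0.0038 in heterozygotes against 0.158 ± 0.0157 in wild type at 50 dpf (SD, n = 3 each). The ratio of lhx8a to zar1 likewise separated the genotypes at both ages, with means of 0.115 ± 0.0126 in heterozygotes and 0.167 ± 0.0202 in wild type at 8 mpf, and 0.123 ± 0.00832 in heterozygotes against 0.163 ± 0.0102 in wild type at 50 dpf. Its ranges at the 2 ages overlapped in each genotype. An exact permutation test of 3 against 3 libraries cannot go below p = 0.1. With no share of all genes counted for them either, these ratios are given as values.

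The ratio of zar1 to zar1l at 8 mpf was 0.997, 0.956 and 1.05 in heterozygotes, against 1.01, 1.05 and 1.02 in wild type, and the genotypes overlapped. In the younger fish, at 50 dpf, it was 0.934, 1.01 and 1.01 in heterozygotes, against 0.870, 0.969 and 0.910 in wild type, again with overlap. Between the ages, the ratio was higher in each wild-type library at 8 mpf than in each at 50 dpf, and the ages overlapped in heterozygotes. The ratio of the zar genes thus moved little beside the ratios that involve figla, but was not fixed.

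**Figure D3:**
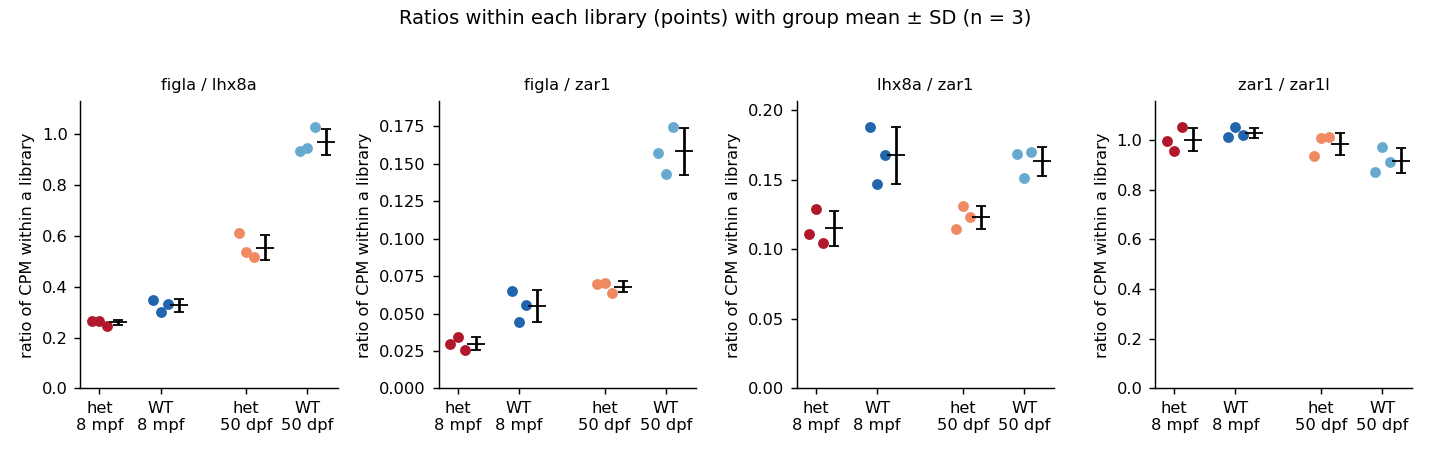
Ratios of CPM within each library (vertical axes, linear, from 0) for figla to lhx8a, figla to zar1, lhx8a to zar1 and zar1 to zar1l. Points are libraries, and bars are group means ± SD (n = 3; het, heterozygote; WT, wild type). The ratio of figla to zar1 averages 0.0299 in heterozygotes and 0.0550 in wild type at 8 mpf, and 0.0680 in heterozygotes against 0.158 in wild type at 50 dpf.

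Among 28 oocyte products named for their place downstream of FIGLA, LHX8 or NOBOX in mice or as oocyte-specific genes, 24 had an ID and were tested. At 8 mpf 5 were called higher in heterozygotes and 2 lower, with a median log2 fold change of 0.37, beside 0.01 for all genes. Of all tested genes, 12.6% were higher and 15.5% lower at that age. At 50 dpf 16 were higher and 0 lower, with a median of 0.64, beside -0.07 for all genes, of which 19.6% were higher and 21.2% lower. In edgeR's test 1 of them was lower at an unadjusted p under 0.05 and DESeq2 called 0 lower. At 50 dpf most of these products were thus higher in heterozygotes, while figla was lower. The higher calls at that age include the egg coat genes zp2.1, zp2.2, zp2.3, zp2.5, zp2.6, zp3a.1, zp3a.2 and zp3b. Counts of near-identical zp genes are uncertain, as set out below, and need not be independent. The others called higher were GDF9, bmp15, npm2a, npm2b, MOS, buc, KIT and UCHL1. The count of 16 ran from 11, with library size alone, to 17 over the alternatives, and the count of 5 at 8 mpf from 3, with library size alone, upper quartile scaling or without heterozygote replicate 3 at 8 mpf, to 10; it was 8 without heterozygote replicate 1 at 50 dpf. This list holds no independent evidence of its direction, since it was chosen with earlier results of these data known.

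zp3b (ENSDARG00000039828), a gene of the egg coat, averaged 3903 ± 197 CPM in heterozygotes and 1857 ± 327 CPM in wild type at 8 mpf (SD, n = 3 each), a log2 change of 1.07 (SE 0.14; edgeR adjusted p = 0.000107). At 50 dpf it averaged 5463 ± 454 CPM in heterozygotes and 2531 ± 192 CPM in wild type, a log2 change of 1.11 (SE 0.14; edgeR adjusted p = 6.64e-05). npm2b, a nucleoplasmin of the egg, rose by 0.85 at 8 mpf (edgeR adjusted p = 0.000988) and by 1.01 at 50 dpf (edgeR adjusted p = 0.000212) on the log2 scale. Its paralog npm2a rose by 0.71 at 8 mpf (edgeR adjusted p = 0.000887) and by 0.62 at 50 dpf (edgeR adjusted p = 0.00167). buc, which organizes the Balbiani body, rose by 0.90 at 50 dpf (edgeR adjusted p = 0.000244), and at 8 mpf its value of 0.38 just missed the threshold (edgeR adjusted p = 0.0501). bmp15, an oocyte growth factor, rose by 0.37 at 50 dpf (edgeR adjusted p = 0.00298). Its value of 0.28 at 8 mpf (edgeR adjusted p = 0.02) was called in 16 of 23 alternatives, was 0.10 with library size alone (edgeR adjusted p = 0.389) and lost its call without heterozygote replicate 3, wild-type replicate 1 or wild-type replicate 3 at 8 mpf. The 2 products lower at 8 mpf were pou5f3, a pluripotency factor of the embryo, at -0.64 (edgeR adjusted p = 0.0389), and the egg coat gene zp3d.2 at -0.30 (edgeR adjusted p = 0.0208). The pou5f3 call was kept in 16 of 23 alternatives (adjusted p up to 0.15, without wild-type replicate 1 at 8 mpf) and the zp3d.2 call in 20 of 23 (adjusted p up to 0.0909, without heterozygote replicate 1 at 8 mpf). With library size alone npm2a at 50 dpf was at 0.29 and not called (edgeR adjusted p = 0.129), while npm2b at 0.66 and buc at 0.56 were called. How reads shared by the near-identical zp genes were assigned is not given in the sources used here, so their counts are uncertain.

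With age, 20 of the 24 products were lower and 2 higher in heterozygotes, and 14 were lower and 1 higher in wild type. Of all genes, 25.5% were called lower and 28.5% higher with age in heterozygotes, and 26.5% lower and 28.7% higher in wild type. The medians were -0.77 in heterozygotes and -0.42 in wild type, in the direction of all 4 genes described above.

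Of 20 partners and other regulators of transcription, 15 were tested. At 8 mpf 0 were higher and 2 lower in heterozygotes in edgeR's test, and the median was -0.12. Neither an unadjusted p under 0.05 nor DESeq2 gave any higher gene (0 each). At 50 dpf 3 were higher and 4 lower, with a median of -0.22. At both ages these counts were few and near the shares of all genes (12.6% higher and 15.5% lower at 8 mpf, 19.6% higher and 21.2% lower at 50 dpf), so nothing is read from them about the list. tcf3b (ENSDARG00000099999), an E protein of the kind that pairs with FIGLA, averaged 6.64 ± 0.389 CPM in heterozygotes and 9.22 ± 0.305 CPM in wild type at 50 dpf (SD, n = 3 each), a log2 change of -0.47 (SE 0.11; edgeR adjusted p = 0.0046), or -0.80 with library size alone. At 8 mpf its log2 fold change of -0.27 missed the threshold (edgeR adjusted p = 0.0772). LDB1 (ENSDARG00000010137), one of the genes for the cofactor that LIM homeodomain proteins bind, had a log2 fold change of -0.43 at 50 dpf (SE 0.12; edgeR adjusted p = 0.0137). On the authors' normalized values it was -0.26 and missed the threshold (limma adjusted p = 0.102). The other LDB1 ID (ENSDARG00000103158) averaged 10.6 CPM in heterozygotes and 12.6 CPM in wild type at 50 dpf. Its log2 change of -0.24 was not called (edgeR adjusted p = 0.41).

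SOX3 (ENSDARG00000053569), a SOX transcription factor, was lower in heterozygotes at both ages. It averaged 0.909 ± 0.124 CPM in heterozygotes and 2.53 ± 0.535 CPM in wild type at 8 mpf, and 2.82 ± 0.681 CPM in heterozygotes and 12.6 ± 0.659 CPM in wild type at 50 dpf (SD, n = 3 each). The log2 changes were -1.47 at 8 mpf (edgeR adjusted p = 0.000205) and -2.16 at 50 dpf (edgeR adjusted p = 5.88e-06). taf4b, a subunit of the general transcription factor TFIID that oocytes of mice need, rose by 1.31 at 50 dpf (edgeR adjusted p = 4.85e-05), and at 8 mpf its value was 0.27 (edgeR adjusted p = 0.206). zglp1, a GATA-like regulator of oogenesis in mice, and TBPL2, the TBP paralog of the oocyte, had values of 0.52 (edgeR adjusted p = 0.0319) and 0.34 (edgeR adjusted p = 0.0491) at 50 dpf. Both values rested on heterozygote replicate 1 at 50 dpf. Without it zglp1 was at 0.28 (edgeR adjusted p = 0.129) and TBPL2 at 0.20 (edgeR adjusted p = 0.186). Over 23 alternatives zglp1 was called in 12 and TBPL2 in 3, and with library size alone zglp1 was at 0.17 and TBPL2 at -0.002.

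Of 22 genes that bind or store maternal mRNA, the activity of the zar proteins, 20 were tested. At 8 mpf 3 were higher and 2 lower in heterozygotes, with a median of 0.06. At 50 dpf 5 were higher and 3 lower, with a median of 0.08. These counts too were near the shares of all genes (12.6% higher and 15.5% lower at 8 mpf, 19.6% higher and 21.2% lower at 50 dpf). YBX1 (ENSDARG00000004757), an mRNA packing protein, averaged 129 ± 15.1 CPM in heterozygotes and 169 ± 14.6 CPM in wild type at 8 mpf (log2 fold change -0.40; edgeR adjusted p = 0.0369). In the younger fish, at 50 dpf, it averaged 156 ± 24.5 CPM in heterozygotes and 207 ± 16.7 CPM in wild type (-0.42; edgeR adjusted p = 0.0225; SD, n = 3 each). The YBX1 call was kept in 16 of 23 alternatives at 8 mpf, where the adjusted p reached 0.131 without heterozygote replicate 2, and in 21 of 23 at 50 dpf. Its heterozygote libraries were thus on the opposite side of wild type to those of zar1 and zar1l. The other gene called lower at 8 mpf, cpeb1a (ENSDARG00000045932), averaged 1.24 CPM in heterozygotes and 3.88 CPM in wild type at that age. This is below the 5 CPM that the naming of list genes asked for. The log2 change of cpeb1a was -1.61 at 8 mpf (edgeR adjusted p = 9.02e-05) and -0.01 at 50 dpf (edgeR adjusted p = 0.965).

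patl2, an mRNA-binding repressor of the oocyte, rose by 0.52 at 50 dpf (edgeR adjusted p = 0.00284), with 0.29 at 8 mpf (edgeR adjusted p = 0.0647). It was called at 50 dpf in 22 of 23 alternatives, and was at 0.20 with library size alone (edgeR adjusted p = 0.25). PABPC1L, the poly(A)-binding protein of oocytes, was at 0.45 at 8 mpf (edgeR adjusted p = 0.0358). EIF4E1B, an oocyte form of the cap-binding protein, was at 0.25 at 8 mpf (edgeR adjusted p = 0.0257). CPEB1 (ENSDARG00000008454), which controls the poly(A) tails of stored mRNAs, and the RNA-binding gene CELF1 (ENSDARG00000005315) had values of 0.57 (edgeR adjusted p = 0.0308) and 0.39 (edgeR adjusted p = 0.0204) at 50 dpf. RBPMS2 (ENSDARG00000045930), an RNA-binding protein of the germ line, was at 0.32 at 8 mpf (edgeR adjusted p = 0.0332), and ZFP36L2, which binds AU-rich mRNA, was at -0.22 at 50 dpf (edgeR adjusted p = 0.0359). These calls were less firm: over 23 alternatives PABPC1L was called in 13, EIF4E1B in 14 and RBPMS2 in 11. CPEB1 was called in 17, CELF1 in 19 and ZFP36L2 in 17. At 50 dpf PABPC1L was also called, at 0.50 (edgeR adjusted p = 0.0156), though its groups overlapped. The other RBPMS2 ID (ENSDARG00000079578) was called at 50 dpf, at 0.34 (edgeR adjusted p = 0.0305). At 8 mpf that ID was at 0.26 and not called (edgeR adjusted p = 0.11). With library size alone edgeR called 0 of the 20 genes higher at either age, and with upper quartile scaling 0 at 8 mpf and 2 at 50 dpf; DESeq2 called 4 higher at 8 mpf and 5 at 50 dpf. The gene of this list that lay farthest down at 50 dpf, MSI1 (ENSDARG00000010710), was singled out after its value was seen; it had 2 counts in all in the 3 heterozygote libraries and 16 to 38 counts per library in wild type.

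**Figure D4:**
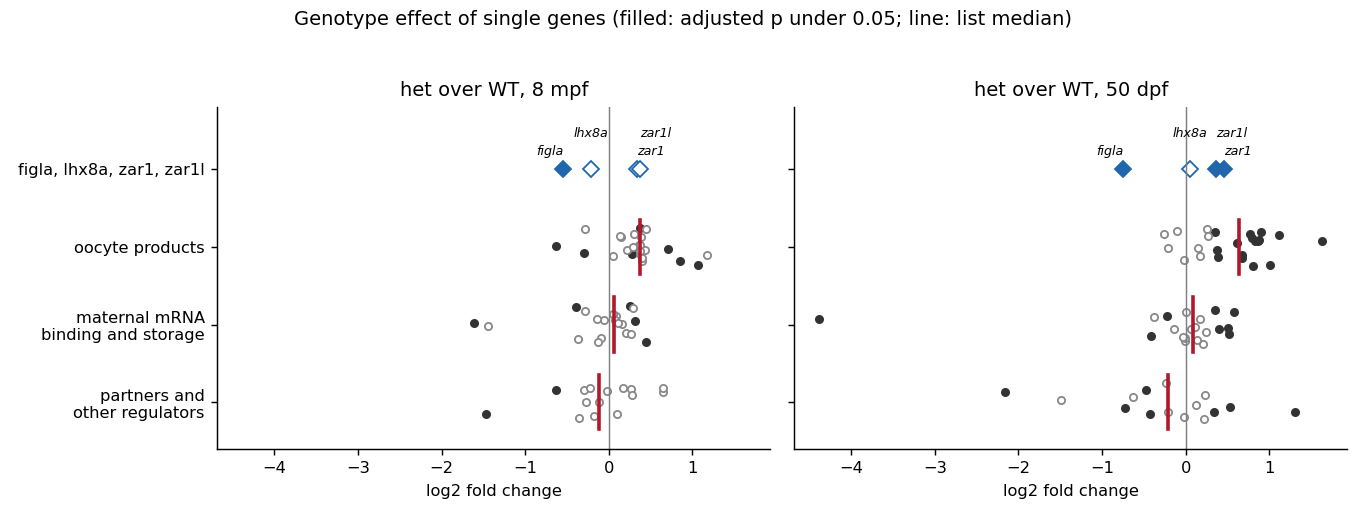
Log2 fold change of heterozygotes (het) over wild type (WT) at 8 mpf (left) and 50 dpf (right) for figla, lhx8a, zar1 and zar1l (diamonds) and for 3 gene lists (circles, 1 per tested gene). Filled symbols passed an adjusted p of 0.05 in edgeR's test, and red lines are list medians. The oocyte products have medians of 0.37 at 8 mpf and 0.64 at 50 dpf, with figla on the other side of 0 at both ages.

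Summed markers of some cell types differed between the genotypes, and those of others overlapped. The part of cell types in the results above was not tested. The 8 oocyte markers summed to 6927 to 7480 CPM in heterozygotes and 4484 to 4621 CPM in wild type at 8 mpf, and to 9556 to 10998 CPM in heterozygotes and 5984 to 6768 CPM in wild type at 50 dpf. All 8 are also in the list of oocyte products above, so their sum is not a separate measure from that list. zp3b made up a mean share of 0.537 of this sum in heterozygotes and 0.409 in wild type at 8 mpf, and of 0.527 in heterozygotes against 0.395 in wild type at 50 dpf. Relative to the sum, figla was lower in every heterozygote library than in every wild-type library of its age, as were 68.3% of all genes at 8 mpf and 68.9% at 50 dpf. The same held for lhx8a, with ratios of 0.0170 to 0.0189 in heterozygotes and 0.0297 to 0.0356 in wild type at 8 mpf. At 50 dpf the lhx8a ratios were 0.0236 to 0.0259 in heterozygotes and 0.0346 to 0.0405 in wild type. zar1 was also lower relative to the full sum in every heterozygote library, with ratios of 0.147 to 0.164 in heterozygotes and 0.190 to 0.202 in wild type at 8 mpf, and of 0.180 to 0.226 in heterozygotes and 0.229 to 0.239 in wild type at 50 dpf. This is the opposite side to its CPM. zar1l was lower relative to the sum without overlap at 8 mpf (0.153 to 0.156 in heterozygotes and 0.188 to 0.194 in wild type), and the genotypes overlapped at 50 dpf (0.179 to 0.242 in heterozygotes and 0.236 to 0.274 in wild type). With zp3b left out of the sum, the mean ratio of figla was 0.00998 in heterozygotes and 0.0186 in wild type at 8 mpf, and 0.0287 in heterozygotes against 0.0616 in wild type at 50 dpf. That of lhx8a was 0.0383 in heterozygotes and 0.0564 in wild type at 8 mpf, and 0.0517 against 0.0634 at 50 dpf. For zar1, the mean ratio without zp3b was 0.334 in heterozygotes and 0.335 in wild type at 8 mpf, and 0.422 in heterozygotes against 0.389 in wild type at 50 dpf. At 8 mpf the zar1 ratios without zp3b overlapped, and at 50 dpf they were higher in every heterozygote library. For zar1l, the mean ratio without zp3b was 0.334 in heterozygotes and 0.327 in wild type at 8 mpf. At 50 dpf it was 0.430 in heterozygotes and 0.425 in wild type, and the genotypes overlapped at both ages. The share of all genes that separate relative to the sum without zp3b was not counted.

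Of 16 tested follicle somatic markers, 0 were higher and 1 lower in heterozygotes at 8 mpf in edgeR's test (median -0.33). DESeq2 and an unadjusted p under 0.05 also gave 0 higher at 8 mpf. At 50 dpf 2 were higher and 5 lower (median -0.98). Of all tested genes, 12.6% were higher and 15.5% lower at 8 mpf, and 19.6% higher and 21.2% lower at 50 dpf. Their summed level, which the steroid enzyme genes CYP11A1 and CYP17A1 dominated, was 497 to 502 CPM in heterozygotes and 449 to 485 CPM in wild type at 8 mpf, and 686 to 786 CPM in heterozygotes and 537 to 569 CPM in wild type at 50 dpf. The 2 called higher at 50 dpf were CYP11A1 (ENSDARG00000002347), at 0.52 on the log2 scale (edgeR adjusted p = 0.000613), and CYP17A1, at 0.41 (edgeR adjusted p = 0.00206). The other CYP11A1 ID (ENSDARG00000092696) was at -1.07 at 50 dpf and was not called (edgeR adjusted p = 0.473). Among those lower, gsdf, a growth factor of granulosa cells, averaged 15.6 ± 1.94 CPM in heterozygotes and 38.8 ± 3.75 CPM in wild type at 50 dpf (SD, n = 3 each). FOXL2 (ENSDARG00000068417), a granulosa cell regulator, averaged 0.948 ± 0.291 CPM in heterozygotes and 6.23 ± 0.673 CPM in wild type. The other FOXL2 ID (ENSDARG00000042180) was at -0.90 at 50 dpf and was not called (edgeR adjusted p = 0.0873). Also called lower at 50 dpf were hsd3b1, at -2.15 (edgeR adjusted p = 0.000207), and inha, at -1.39 (edgeR adjusted p = 0.00859). NR5A1 (ENSDARG00000023362) and INHBA (ENSDARG00000024759) were at 0 in heterozygotes at 50 dpf, and this INHBA ID was at 0 in wild type of that age. Neither ID passed the filter on low counts, so a 0 is not read as a loss. The tested NR5A1 ID (ENSDARG00000103176) was at -4.03 at 50 dpf (edgeR adjusted p = 0.00927) and at -0.14 at 8 mpf (edgeR adjusted p = 0.909).

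The counts of called markers below stand beside 12.6% of all tested genes higher and 15.5% lower at 8 mpf. At 50 dpf these shares were 19.6% higher and 21.2% lower. The 8 leukocyte markers with an ID summed to 20.9 to 36.1 CPM in heterozygotes and 37.0 to 53.9 CPM in wild type at 8 mpf. At 50 dpf they summed to 20.2 to 26.4 CPM in heterozygotes and 54.7 to 57.0 CPM in wild type. At each age 5 of 8 were called lower. The marker lyz lay higher in every heterozygote library at 8 mpf, at 0.72 on the log2 scale, and was not called there (edgeR adjusted p = 0.178). At 50 dpf lyz was called lower, at -1.47 (edgeR adjusted p = 0.0164). CORO1A, an actin-binding protein of leukocytes, fell by 1.11 on the log2 scale at 8 mpf (edgeR adjusted p = 0.000504) and by 0.76 at 50 dpf (edgeR adjusted p = 0.00476). LCP1, a leukocyte plastin, was at -0.97 at 8 mpf (edgeR adjusted p = 0.0103) and at -1.59 at 50 dpf (edgeR adjusted p = 0.00071). The antigen presentation genes cd74a and cd74b were at -1.28 (edgeR adjusted p = 0.00152) and -2.01 (edgeR adjusted p = 0.000184) at 50 dpf. At 8 mpf cd74b was called at -0.88 (edgeR adjusted p = 0.029), and cd74a at -0.46 was not (edgeR adjusted p = 0.187). Of 6 erythrocyte markers, 1 was called lower at 8 mpf (median -0.46) and 3 at 50 dpf (median -1.64), with 0 higher at either age in edgeR's test, at an unadjusted p under 0.05 or with DESeq2. They summed to 17.9 to 34.7 CPM in heterozygotes and 24.5 to 33.6 CPM in wild type at 8 mpf. At 50 dpf they summed to 26.1 to 38.9 CPM in heterozygotes and 34.2 to 45.9 CPM in wild type. Of these markers, hbaa2 was at 0 in heterozygotes at 50 dpf and was not called there (edgeR adjusted p = 0.254). Of 10 tested stroma and vessel markers, 1 was called higher and 5 lower at 8 mpf (median -0.75), and 1 higher and 2 lower at 50 dpf (median -0.07). kdrl, a receptor of vessels, was the marker higher at 8 mpf, at 1.25 (edgeR adjusted p = 5.71e-05). Among those lower, the naming rule takes the collagen gene col1a1a at 8 mpf, at -0.63 (edgeR adjusted p = 0.00289). At 50 dpf it takes PDGFRA, at -1.07 (edgeR adjusted p = 0.000282). The stroma and vessel markers summed to 22.2 to 24.3 CPM in heterozygotes and 24.0 to 30.9 CPM in wild type at 8 mpf. At 50 dpf they summed to 32.0 to 36.2 CPM in heterozygotes and 36.5 to 37.8 CPM in wild type. LUM, which did not pass the filter on low counts, was at 0 in heterozygotes at 50 dpf.

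The genes whose levels over the 12 libraries were most like those of each gene were found among 9164 named genes with a mean of at least 5 CPM. Likeness was measured as the root mean square difference of log2 CPM after each gene was centred on its own mean. Nearest to figla, whose own spread was 1.15 on this scale, were cfap251 at 0.176, CFAP90 at 0.211 and BCL6 at 0.233. cfap251 (ENSDARG00000059855) averaged 2.70 ± 0.111 CPM in heterozygotes and 3.60 ± 0.768 CPM in wild type at 8 mpf, and 10.2 ± 0.975 CPM in heterozygotes and 14.4 ± 0.980 CPM in wild type at 50 dpf (SD, n = 3 each). Like figla, it was lowest in heterozygotes at 8 mpf and highest in wild type at 50 dpf.

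Nearest to lhx8a, with a spread of 0.441, were tead1a at 0.0823, RCHY1 at 0.0942 and crip1 at 0.0966. Nearest to zar1, with a spread of 0.468, were ubc at 0.0574, MRPL12 at 0.0746 and pa2g4b at 0.0814, and zar1l itself was at 0.0798. Nearest to zar1l, with a spread of 0.507, were EEF1B2 at 0.0774, UBE2C at 0.0789 and RPL4 at 0.0818. Between the genes described here, figla was at 0.737 from lhx8a, 0.877 from zar1 and 0.823 from zar1l, and lhx8a was at 0.264 from zar1 and 0.252 from zar1l. The zar genes thus lay close to each other, though ubc and MRPL12 were nearer to zar1, and EEF1B2 and UBE2C to zar1l. figla lay farthest from the others. This measure also counts the size of the changes, and figla had the largest spread, so the distance does not show a different pattern. The same 3 nearest genes were found for each of the 4 under every other scaling tried. Scaling shifts all genes of a library alike, apart from the prior count. This outcome was therefore nearly fixed in advance and adds no support.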

How the data were processed

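TRIzol extraction and a directional library kit were used, per the labels' protocols. The submitters' processing notes name bcl2fastq, FastQC 0.11.5, HISAT2, StringTie, DESeq2 and the build GRCz11, with no roles. The authors deposited estimated counts per gene, already whole numbers, and a table of normalized values (unit signal, linear); what both tables hold was inferred from the values. Of 32057 gene IDs, 28988 had a symbol. The member genes and gene lists were chosen with earlier results of these data known.

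Genes passing edgeR's filterByExpr (18834) were TMM-scaled, and the two-sided quasi-likelihood test of edgeR was run in 1 fit of all 12 libraries with 1 mean per group; Benjamini-Hochberg adjustment ran over all tested genes, with a threshold of 0.05. SE is the absolute log2 fold change over the root of F. All 4 genes passed the filter. Likeness used log2 CPM with a prior count of 2. List genes were named per genotype comparison, at most 3 per direction, by size of change among called genes without group overlap and with at least 5 CPM in the higher group. The code was tested on simulated data. DESeq2 (1.42.0) and limma (3.58.1, on the deposited normalized values) were alternatives to edgeR (4.0.16), with R 4.3.3 and Python 3.11.15; other alternatives were scalings, filters, left-out libraries and a replicate block. Intervals are 1.96 SE on either side, which is somewhat too narrow for so few libraries, and cover the spread between libraries only.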

Additional observations from a re-analysis of the deposited data

Results flagged for a closer look

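The genotype effect of 15 of the 97 tested list genes differed between the ages in the test of the difference itself (8 mpf less 50 dpf, log2 scale, edgeR adjusted p under 0.05), beside 13.5% of all genes. The naming rule takes 7 of them. The other 8 are cpeb1a, hsd3b1, lyz, COL1A1 (ENSDARG00000035809), COL1A2, acta2, TAGLN (ENSDARG00000045408) and cdh5. taf4b, the TFIID subunit, differed by -1.04 (adjusted p = 0.0079). The egg coat gene zp3d.2 differed by -0.44 (adjusted p = 0.0309) and the steroid enzyme gene CYP17A1 (ENSDARG00000033566) by -0.48 (adjusted p = 0.0168). The granulosa cell genes FOXL2 (ENSDARG00000068417) and gsdf differed by 1.61 (adjusted p = 0.0371) and 0.91 (adjusted p = 0.0251). PDGFRA, a receptor of stromal cells, differed by 1.01 (adjusted p = 0.0103) and kdrl, a receptor of vessels, by 1.34 (adjusted p = 0.00178). Over 22 alternatives PDGFRA and kdrl were called in all 22, taf4b in 21, CYP17A1 in 19, gsdf in 16 (adjusted p up to 0.0689), FOXL2 in 13 (up to 0.0904) and zp3d.2 in 12 (up to 0.226). The FOXL2 and gsdf calls were lost only when 1 library was left out: for FOXL2 any of 9 of the 12, and for gsdf any of 6. The difference did not pass the threshold for figla, lhx8a, zar1 or zar1l.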

How the results depend on the processing

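Over 23 alternatives (22 for the difference between the ages), the age effects of figla, lhx8a, zar1 and zar1l and the genotype effect of figla at 50 dpf kept direction and call. figla at 8 mpf ranged from -0.72 to -0.46 and kept its call in 21 of 23. zar1 at 50 dpf ranged from 0.12 to 0.54 and kept its call in 22. The number of the 4 genes called between genotypes at 8 mpf, 1 in the reported fit, was 3 with DESeq2, 2 with library size alone, upper quartile scaling, only the groups compared or the replicate block, and 0 to 4 when libraries were left out. It was 4 without heterozygote replicate 1 at 50 dpf, and 0 without heterozygote replicate 3 or wild-type replicate 1 at 8 mpf. At 50 dpf it was 2 or 3 under every alternative, against 3. The genes called were not always the same. With library size alone they were figla and lhx8a, both lower, at each age, and neither zar1 nor zar1l was called. Upper quartile scaling also called figla and lhx8a at 8 mpf. With only the groups compared or the replicate block, the 2 called at 8 mpf were figla, lower, and zar1l, higher. The number of all genes whose genotype effect differed between the ages was 4118 without wild-type replicate 2 at 8 mpf and 1699 at the lowest, against 2548. The sign of lhx8a at 50 dpf turned with upper quartile scaling (-0.026), with library size alone (-0.293) and without heterozygote replicate 1 (-0.051). TBPL2 at 50 dpf was -0.002 with library size alone. Differences between the ages near 0 also changed sign, for zar1 to 0.036 with library size alone and for zar1l to -0.012 with upper quartile scaling; without 1 library they ran from -0.2 to 0.006 for zar1 and from -0.09 to 0.182 for zar1l. The causes were not tested. Upper quartile scaling moved the higher calls at 8 mpf from 2377 to 1754 and the lower from 2911 to 3410; library size alone gave 1618 higher and 6749 lower at 50 dpf, against 3696 and 3995. With the replicate block, 10 oocyte products were higher at 8 mpf, against 5. The alternatives for gene lists, list genes, likeness and the marker sum without zp3b were chosen after seeing the data. No label says that equal replicate numbers mark a shared fish or batch; deviations of same-numbered libraries correlated between -0.159 and 0.105, and 6 of 12 libraries correlated best with their own number in the other genotype.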
